A study of Mus musculus with 45 samples.

Results

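The mRNAs described here are 7 of the 13 protein-coding transcripts of the mouse mitochondrial genome: mt-Nd1, mt-Nd2, mt-Nd4, mt-Nd5 and mt-Nd6, which encode subunits of respiratory complex I (NADH dehydrogenase), mt-Cytb, which encodes cytochrome b of complex III, and mt-Co1, which encodes the catalytic subunit of complex IV (cytochrome c oxidase). They were found among the 54532 genes of the count table by their Ensembl identifiers, and all 7 were present. All 7 had reads in every one of the 45 libraries, so that each was tested in every comparison. The RNA came from mouse primary neurons of the hippocampus (C57BL/6N, newborn mice, cultures with B27, rat serum and, from day in vitro 3, the mitosis inhibitor AraC) that were treated on day 10 or 11. All 9 conditions were collected from each of 5 culture preparations (replicate numbers 1, 3, 6, 7 and 8), which gave 5 libraries per condition.

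The conditions were an untreated control (Control), bicuculline at 50 µM for 0.5 h (Bic_0.5h), 1 h (Bic_1h) or 2 h (Bic_2h), and 5 interventions during bicuculline. Bicuculline (Bic) blocks GABA type A receptors and thereby induces action potential (AP) firing. In the short protocol (SP), 0.5 h Bic was followed by 0.5 h with 1 µM TTX, a sodium channel blocker that stops AP firing (SP_TTX), or with TTX and 30 µM NMDA (SP_TTX_NMDA). In the long protocol (LP), 1 h Bic was followed by 1 h with TTX (LP_TTX), TTX and NMDA (LP_TTX_NMDA) or 50 µM TBOA (LP_TBOA), an inhibitor of glutamate uptake. For each protocol, the TTX condition against Bic alone of the same total time is the passive effect, TTX and NMDA against TTX the active effect, and TTX and NMDA against Bic alone the total effect. LP_TBOA against Bic_2h is the spillover effect. The total effect shares its libraries with the passive and the active effect, so these are not independent.

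Mitochondrial DNA is transcribed from both strands into long precursors by the RNA polymerase POLRMT with the help of TFAM and TFB2M. The precursors are cut at the tRNAs that lie between most genes, and the mRNAs then receive a short poly-A tail inside the organelle. The encoded proteins are assembled with nuclear-encoded subunits into the complexes of oxidative phosphorylation, on which neurons depend for most of their ATP. Bath-applied NMDA loads neurons with calcium, and mitochondria take up part of that calcium.

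In the annotation of the mouse genome GRCm38, 6 of the 7 genes lie on the plus strand of chromosome M: mt-Nd1 (ENSMUSG00000064341) at chrM:2751-3707, mt-Nd2 (ENSMUSG00000064345) at chrM:3914-4951, mt-Co1 (ENSMUSG00000064351) at chrM:5328-6872, mt-Nd4 (ENSMUSG00000064363) at chrM:10167-11544, mt-Nd5 (ENSMUSG00000064367) at chrM:11742-13565 and mt-Cytb (ENSMUSG00000064370) at chrM:14145-15288. The gene mt-Nd6 (ENSMUSG00000064368, chrM:13552-14070) is the only 1 of the 7 on the minus strand, and its last 14 bases lie opposite the last 14 bases of mt-Nd5 (chrM:13552-13565). Reads were counted by strand. None of the 7 genes has introns. The annotated transcripts end with the reading frame, and the sites where the tails begin were not measured. The last 30 bases of each annotated transcript (GENCODE release M21, GRCm38) are given 5′ to 3′, with the letters of the stop codon in capitals:
mt-Nd1: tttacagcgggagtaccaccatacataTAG
mt-Nd2: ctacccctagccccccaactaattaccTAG
mt-Co1: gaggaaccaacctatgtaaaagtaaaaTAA
mt-Nd4: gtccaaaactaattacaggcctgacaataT
mt-Nd5: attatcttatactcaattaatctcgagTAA
mt-Nd6: tttattattatcgagattactcgagatTAA
mt-Cytb: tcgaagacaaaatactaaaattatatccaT
The transcripts of mt-Nd4 and mt-Cytb end in the single letter T and obtain a full stop codon only with the A residues of the tail. The other 5 carry 3 stop letters of their own. Libraries were made from poly-A RNA, so the values below are levels of RNA captured by its tail. The ND6 transcript of human cells is known to carry little or no tail.

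How much of each transcript could be counted depended on nuclear copies of mitochondrial DNA, because reads that mapped to several places were not counted. Of all windows of 75 bases, the read length, 61.5% in mt-Nd4 and 39.8% in mt-Co1 were identical to a window of another annotated transcript. These matches were to Gm28439 for mt-Nd4 and to Gm29216 and Gm13340 for mt-Co1, which are annotated nuclear pseudogenes. The share was 5.71% in mt-Nd2 and 1.66% in mt-Nd5, and it was 0 in mt-Nd1, mt-Nd6 and mt-Cytb. Among the 6 other mitochondrial mRNAs it was 97.8% in mt-Nd3, 98.7% in mt-Nd4l, 99.5% in mt-Co2, 99.9% in mt-Co3 and 99.5% in mt-Atp6. These 5 were listed at 0 in all 45 libraries, and so was mt-Atp8, in which no window was shared. The levels of mt-Co1 and mt-Nd4 are therefore uncertain, whereas their ratios between conditions compare the same countable windows.

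The libraries held 11316580 to 81129276 counts on genes (median 26239614). Counts on the 7 mRNAs together ranged from 68999 to 597727 per library, with at least 259 reads for mt-Nd6 and at least 5060 for each of the other 6, so that counting error was small beside the differences between preparations. The neuronal markers (Rbfox3, Map2, Tubb3, Syn1, Snap25, Slc17a7, Gad1 and Gad2) were found in every library. Astrocyte, oligodendrocyte-lineage and mesenchymal markers were found too, and the microglial and endothelial markers P2ry12 and Cldn5 were at 0 in some libraries.

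In the control, the level per length (CPM, that is TMM-normalized counts scaled to the library size, per kilobase of transcript) was highest for mt-Nd1, with 1337 ± 216 (SD, n = 5). It was 1250 ± 203 for mt-Cytb and 1140 ± 195 for mt-Co1. These 3 did not differ beyond the spread between preparations, and the lowest mt-Co1 value (927) was below the highest mt-Nd2 value (955). The following levels per kilobase were 842 ± 88.1 for mt-Nd2, 546 ± 86.4 for mt-Nd5, 351 ± 50.7 for mt-Nd4 and 58.3 ± 9.30 for mt-Nd6, and among these 4 the ranges of neighbors did not overlap. With only the windows that no other transcript shared as the length, mt-Co1 became the highest (1990 ± 341) and mt-Nd4 (965 ± 139) came level with mt-Nd2 (961 ± 101). The order of mt-Co1 and mt-Nd4 among the others is thus set by how the shared windows are treated, while mt-Nd6 was the lowest by either length.

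The 7 mRNAs together took 0.610, 0.761, 0.669, 0.820 and 0.618% of the counts in the control libraries of preparations 1, 3, 6, 7 and 8 (0.695 ± 0.0921%, SD, n = 5). The share was 0.682 ± 0.0799% in Bic_0.5h, 0.579 ± 0.0783% in Bic_1h and 0.562 ± 0.0872% in Bic_2h. In LP_TTX it was 0.581, 0.699, 0.727, 0.730 and 0.548% (0.657 ± 0.0861%). In LP_TTX_NMDA it was 1.30, 1.24, 1.44, 1.31 and 1.03% (1.27 ± 0.149%), and every one of these libraries was above every library of the control, the Bic and the TTX conditions and of LP_TBOA. SP_TTX_NMDA took the second place with 0.845, 0.775, 0.996, 1.12 and 0.648% (0.876 ± 0.184%), against 0.637 ± 0.138% in SP_TTX and 0.664 ± 0.126% in LP_TBOA. The ranges of LP_TTX_NMDA and SP_TTX_NMDA overlapped, as did those of the other 7 conditions among each other.

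**Figure D1:**
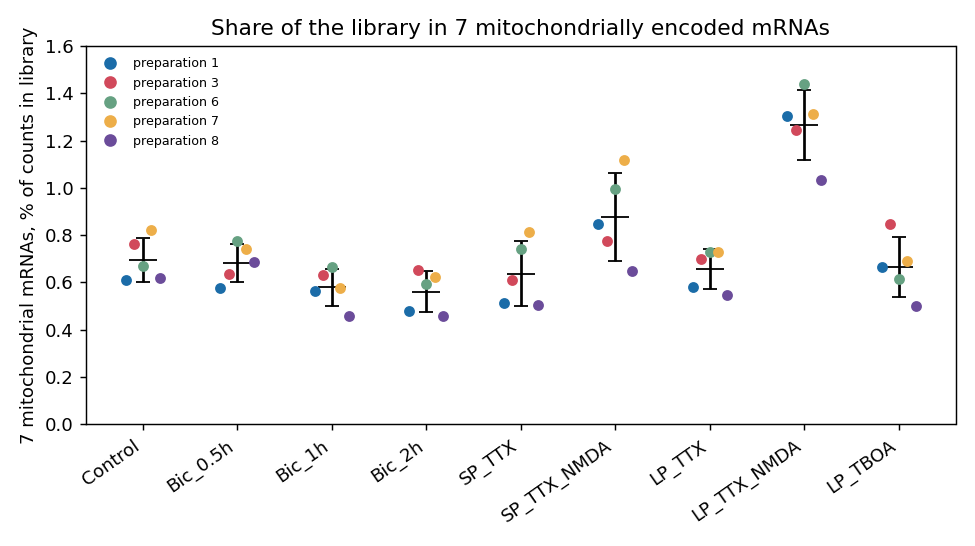
Share of the counts in each library taken by the 7 mitochondrial mRNAs (y axis, %) in the 9 conditions (x axis), with 1 point per library, colored by culture preparation, and bars for mean ± SD (n = 5). The 5 LP_TTX_NMDA libraries lie between 1.03 and 1.44%, and the control libraries between 0.610 and 0.820%.

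Within preparations, the share was on average 1.93-fold higher in LP_TTX_NMDA than in LP_TTX and 2.26-fold higher than in Bic_2h, with a higher value in 5 of 5 preparations each time. In the short protocol, NMDA with TTX gave a 1.38-fold higher share than TTX alone, again in 5 of 5 preparations, but the 2 groups of libraries overlapped. After 2 h Bic the share fell by 19.5% on average compared with the control, in 5 of 5 preparations, and the groups overlapped. These shares are descriptions without a test. In bulk RNA, more mitochondrial RNA per cell, less nuclear-encoded mRNA per cell and a different mix of cells cannot be told apart. Nor can a difference in how much of the RNA was captured by its tail.

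The level of each mRNA was then compared between conditions with edgeR's quasi-likelihood test, in which a gene was called when its p-value, adjusted over all genes with at least 1 read, was below 0.05. Levels in single libraries are given as TMM-normalized CPM, and changes as log2 fold changes (log2FC) with their standard error. A second fit had the preparation as a block, since all conditions were sampled from the same 5 preparations, and was limited to genes kept by the filterByExpr function (the paired fit). Where that fit gave another number of called mRNAs, both numbers are stated.

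The long-protocol active effect, the addition of NMDA to TTX for 1 h, raised all 7 mRNAs. Of all genes tested, 11.6% were called higher in this comparison. The median log2FC of the 7 mRNAs was 0.80, against 0.11 over all genes tested. Of the expressed genes, 0.508% had a larger log2FC than the largest of the 7.

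The largest change was that of mt-Nd4, a membrane subunit of complex I. Its level was 452, 556, 577, 585 and 390.5 CPM in LP_TTX and 1055, 1065, 1271, 1100 and 812 CPM in LP_TTX_NMDA. The groups were apart, and log2FC was 1.04 ± 0.10 (SE; adjusted p = 3.9e-09, edgeR), a 2.06-fold increase.

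The mRNA of cytochrome b, mt-Cytb, was at 1270, 1573, 1677, 1620 and 1068 CPM in LP_TTX and at 2829, 2695, 3025, 2875 and 2018 CPM in LP_TTX_NMDA. Its log2FC was 0.89 ± 0.10 (adjusted p = 1.0e-07, edgeR), and again the groups were apart.

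For mt-Nd1, the values were 1041, 1286, 1221, 1342 and 1126 CPM in LP_TTX and 2187, 2236, 2452, 2257 and 1910 CPM in LP_TTX_NMDA. All libraries with NMDA were above all libraries without it, with a log2FC of 0.87 ± 0.08 (adjusted p = 6.8e-10, edgeR).

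The level of mt-Nd2 was 757, 945, 882, 1036 and 821 CPM in LP_TTX and 1439, 1529, 1649, 1454 and 1370 CPM in LP_TTX_NMDA (log2FC 0.74 ± 0.08, adjusted p = 1.7e-08, edgeR). Levels of mt-Co1 were 1625, 1913, 2297, 2027 and 1432 CPM in LP_TTX and 3201, 3008, 3659, 3157 and 2418 CPM in LP_TTX_NMDA (log2FC 0.73 ± 0.10, adjusted p = 2.3e-06, edgeR). In both mRNAs the groups were apart.

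The minus-strand mRNA mt-Nd6 was at 30.9, 32.1, 32.4, 32.7 and 25.9 CPM in LP_TTX and at 60.6, 54.9, 47.9, 61.7 and 45.1 CPM in LP_TTX_NMDA, with no overlap. Its log2FC of 0.80 ± 0.09 (adjusted p = 2.9e-08, edgeR) was the median of the 7.

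The smallest change was that of mt-Nd5, another membrane subunit of complex I. Its level was 866, 978, 1098, 1057 and 807 CPM in LP_TTX and 1228, 1214, 1370, 1244 and 1005 CPM in LP_TTX_NMDA, and the groups overlapped, because the lowest library with NMDA lay below the highest libraries without it. Within each preparation the library with NMDA was higher. The log2FC was 0.33 ± 0.08 (adjusted p = 3.9e-03, edgeR), a 1.25-fold increase, and mt-Nd5 was not called when all 45 libraries entered 1 fit (log2FC 0.29). The other 6 mRNAs were called under each of the 11 alternatives that were run for this comparison.

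**Figure D2:**
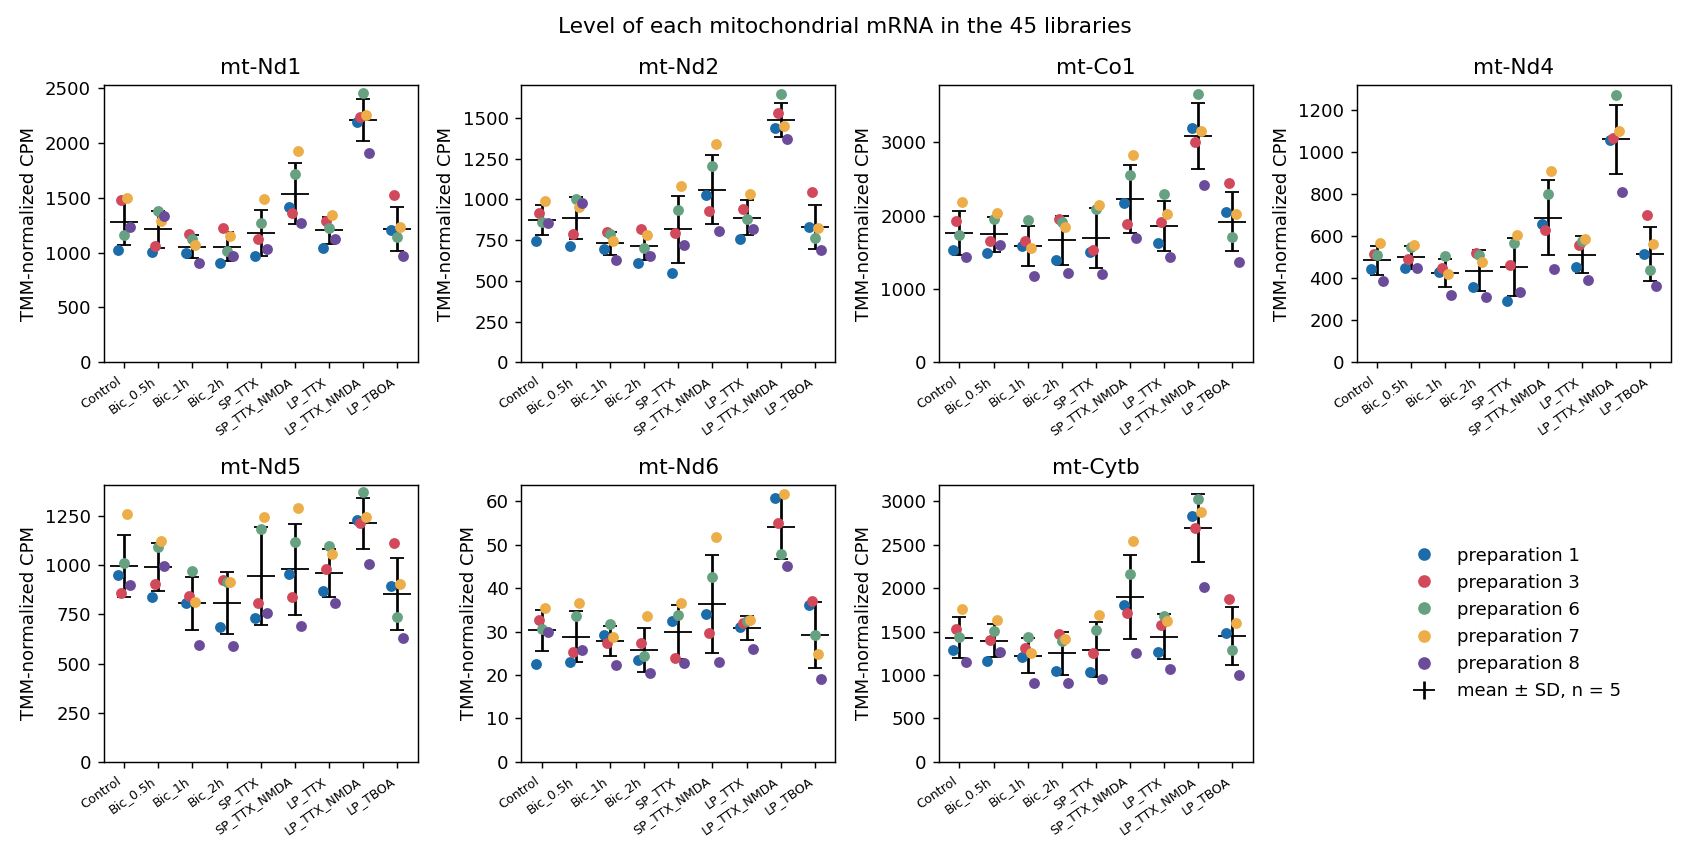
TMM-normalized CPM (y axes, from 0) of each of the 7 mRNAs in the 45 libraries by condition (x axes), with 1 point per library, colored by culture preparation, and bars for mean ± SD (n = 5). LP_TTX_NMDA has the highest mean in all 7 panels, and only in mt-Nd5 do its libraries overlap with those of LP_TTX.

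Markers of other cells moved with the same comparison. The summed level of the 6 astrocyte markers (Gfap, Aqp4, Aldh1l1, Slc1a3, S100b and Gja1) was 389 to 805 CPM in LP_TTX and 688 to 1429 CPM in LP_TTX_NMDA, with a 1.81-fold higher mean, and all 6 had a higher mean. The sum was 96.6 to 159.5 CPM and 151 to 299 CPM for the 5 oligodendrocyte-lineage markers (4 of 5 with a higher mean), and 17.9 to 47.2 CPM and 25.5 to 80.5 CPM for the 5 vascular and mesenchymal markers (5 of 5 with a higher mean). That of the 8 neuronal markers was 6878 to 7681 CPM in LP_TTX and 5930 to 6489 CPM in LP_TTX_NMDA, although 4 of the 8 had a higher mean. The 5 microglial markers summed to 3.65 to 5.28 CPM and 3.73 to 5.76 CPM. The part of these cells in the change of the mitochondrial mRNAs was not tested.

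The long-protocol total effect raised all 7 mRNAs as well. Here 11.7% of all genes tested were called higher, and the median log2FC was 1.05 for the 7 mRNAs and 0.11 for all genes tested. The largest log2FC was again that of mt-Nd4 (1.27 ± 0.11, adjusted p = 5.5e-11, edgeR), which was 2.41-fold higher than in Bic_2h. The smallest was that of mt-Nd5 (0.58 ± 0.10, adjusted p = 2.3e-05, edgeR). The other 5 lay between 0.88 (mt-Co1) and 1.09 (mt-Cytb). In all 7 mRNAs the libraries of LP_TTX_NMDA were above those of Bic_2h without overlap, and in all 35 pairs of an mRNA and a preparation the value was higher. The summed mean was 1.79-fold higher for the astrocyte markers, 1.56-fold for the oligodendrocyte-lineage markers and 1.52-fold for the vascular and mesenchymal markers, each in 5 of 5 preparations. The neuronal sum was higher in 0 of 5 preparations (ratio of means 0.860) and the microglial sum in 2 of 5 (0.994). The part of these cells was not tested.

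The long-protocol passive effect, TTX against Bic of the same length, was small. Only mt-Nd2 was called (log2FC 0.31 ± 0.08, adjusted p = 0.012, edgeR), where 3.03% of all genes tested were called higher. The other 6 had log2FC values of 0.15 to 0.25, and with all 45 libraries in 1 fit none was called. The paired fit called all 7 higher, where it called 15.5% of all genes higher, with adjusted p-values from 9.8e-06 (mt-Nd2) to 0.0116 (mt-Co1). For mt-Nd2, the values were 611, 818, 701, 779.5 and 651 CPM in Bic_2h and 757, 945, 882, 1036 and 821 CPM in LP_TTX. The groups overlapped, and the library with TTX was higher in 5 of 5 preparations. Of all 35 pairs of an mRNA and a preparation, 33 were higher with TTX. The astrocyte marker sum had about the same mean in both conditions (562 ± 124 CPM in Bic_2h and 558 ± 173 CPM in LP_TTX). With TTX the vascular and mesenchymal sum was higher in 0 of 5 preparations (ratio of means 0.845). The oligodendrocyte-lineage sum was higher in 1 of 5 (0.904), the microglial sum in 3 of 5 (0.943) and the neuronal sum in 3 of 5 (1.01). The part of these cells was not tested.

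For the spillover effect, no member was called by edgeR, where 0.602% of all genes tested were called in either direction. The log2FC values ranged from 0.10 (mt-Nd5) to 0.26 (mt-Nd4). Of the 7, 3 had an unadjusted p-value below 0.05, and DESeq2 called 0. The paired fit called mt-Nd2 (log2FC 0.23, adjusted p = 0.0431), where it called 0.439% of all genes higher. Preparation 8 bore on this result, because without its libraries 4 of the 7 were called higher, beside 128 of 30953 genes. The astrocyte sum had a 1.23-fold higher mean with TBOA (3 of 5 preparations, 6 of 6 markers). Ratios of means were 1.13 for the oligodendrocyte-lineage sum (higher in 4 of 5 preparations) and 1.03 for the vascular and mesenchymal sum (4 of 5). They were 0.969 for the neuronal sum (2 of 5) and 0.944 for the microglial sum (3 of 5). The part of these cells was not tested.

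**Figure D3:**
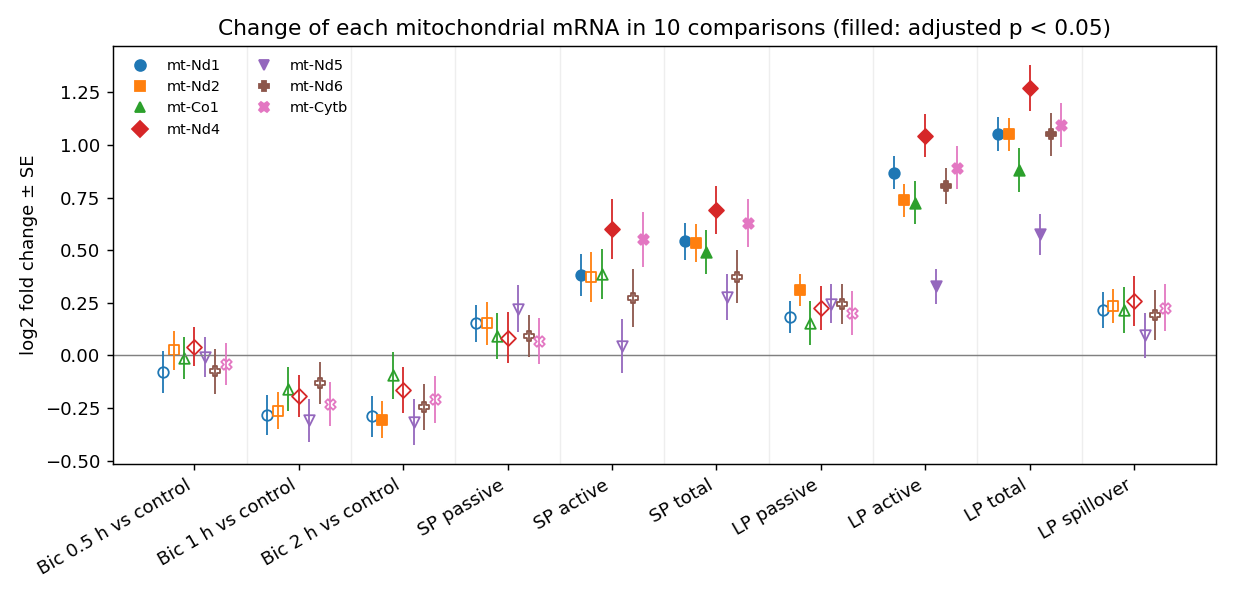
Log2 fold change ± SE (y axis) of the 7 mRNAs in the 10 comparisons (x axis), from edgeR fits over the 10 libraries of each comparison. Filled symbols mark mRNAs called by edgeR: 7 in the long-protocol active and total effects, 5 and 3 in the short-protocol total and active effects, 1 in the long-protocol passive effect and 1 after 2 h Bic.

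In the short protocol, NMDA with TTX for 0.5 h raised 3 of the 7 mRNAs compared with TTX alone, where 0.956% of all genes tested were called higher. These were mt-Nd4 (log2FC 0.60 ± 0.14, adjusted p = 8.9e-03), mt-Cytb (0.55 ± 0.13, adjusted p = 7.3e-03) and mt-Nd1 (0.38 ± 0.10, adjusted p = 0.0189, all edgeR). The paired fit called 6 of 7, all but mt-Nd5, where it called 5.6% of all genes higher. DESeq2 called 1 and edgeR over the filterByExpr genes without the block called 0, so the number of calls depends on the fit.

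For mt-Nd4, the values were 292, 461, 567, 607 and 335 CPM in SP_TTX and 659, 628, 800, 910 and 442 CPM in SP_TTX_NMDA. The groups overlapped, the value was higher in 5 of 5 preparations, and preparation 1 had the largest rise, with a log2 ratio of 1.17 against 0.40 to 0.58 in the others. The level of mt-Nd5 was 730, 809, 1181, 1245 and 759 CPM in SP_TTX and 957, 839, 1116, 1288 and 692 CPM in SP_TTX_NMDA, higher in 3 of 5 preparations. Its log2FC was 0.04 ± 0.13 (adjusted p = 0.91, edgeR). For mt-Nd2, mt-Co1 and mt-Nd6 the log2FC values were 0.37, 0.39 and 0.27, with adjusted p-values of 0.0701, 0.0566 and 0.370 (edgeR).

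Against Bic_1h, the short-protocol total effect was called for 5 of the 7, where 0.891% of all genes tested were called higher. Values of log2FC were 0.69 ± 0.11 for mt-Nd4, 0.63 ± 0.11 for mt-Cytb, 0.54 ± 0.09 for mt-Nd1, 0.53 ± 0.09 for mt-Nd2 and 0.49 ± 0.10 for mt-Co1. The other 2 were mt-Nd6 (0.37, adjusted p = 0.0898) and mt-Nd5 (0.28, adjusted p = 0.186, edgeR), and the paired fit called all 7, where it called 10.8% of all genes higher. Markers of other cells moved less evenly than in the long protocol. The astrocyte marker sum was 645 ± 180 CPM in SP_TTX_NMDA, 673 ± 203 CPM in SP_TTX and 547 ± 174 CPM in Bic_1h. Compared with SP_TTX it was higher in 4 of 5 preparations despite the lower mean, with a higher mean for 4 of 6 markers, and compared with Bic_1h it was higher in 5 of 5 preparations and for 6 of 6 markers. The vascular and mesenchymal sum had a 1.31-fold higher mean with NMDA than with TTX alone (4 of 5 preparations) and a 1.34-fold higher mean than in Bic_1h (5 of 5). The neuronal sum was lower in 5 of 5 preparations in both comparisons, with ratios of the means of 0.972 and 0.964. The part of these cells was not tested. For the short-protocol passive effect edgeR called none of the 7, and 0.268% of all genes tested in either direction. The log2FC values ranged from 0.07 to 0.22, 0 of the 7 had an unadjusted p-value below 0.05, and DESeq2 called 0.

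Whether the active effect differed between the protocols was tested directly. The difference (long minus short) was positive for all 7, from 0.30 (mt-Nd5) to 0.55 (mt-Nd6) on the log2 scale. Only mt-Nd1 was called (0.50 ± 0.14, adjusted p = 0.0421, edgeR), where 0.722% of all genes tested were called higher. The paired fit called 6 of 7, all but mt-Nd5, where it called 9.47% of all genes higher. With RLE size factors, with filterByExpr or without preparation 1, 3 or 6 no member was called, and without 7 or 8 there were 2. The passive effect did not differ detectably between the protocols for any of the 7 (differences of 0.02 to 0.16, all adjusted p = 1.00 with edgeR, 0 with an unadjusted p-value below 0.05, 0 called by DESeq2), where 0.256% of all genes tested were called in either direction.

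The changes with AP firing alone were small. After 0.5 h Bic the log2FC values ranged from -0.08 to 0.04, and edgeR called none of the 7, with 0.289% of all genes tested called in either direction. None had an unadjusted p-value below 0.05, and DESeq2 called 0. After 1 h they were all negative, from -0.13 (mt-Nd6) to -0.31 (mt-Nd5), and edgeR called none, with 1.16% of all genes tested called in either direction. The unadjusted p-value was below 0.05 for 4 of the 7, and DESeq2 called 0. The paired fit called mt-Nd1 (adjusted p = 0.0461) and mt-Nd2 (adjusted p = 0.0302) lower, where it called 1.14% of all genes lower.

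After 2 h Bic all 7 had a negative log2FC, from -0.10 (mt-Co1) to -0.32 (mt-Nd5), with a median of -0.25 against -0.01 over all genes tested. The only mRNA called was mt-Nd2 (log2FC -0.31 ± 0.09, adjusted p = 0.0189, edgeR), where 4.78% of all genes tested were called lower. Its level was 742, 917, 862, 991 and 857 CPM in the control and 611, 818, 701, 779.5 and 651 CPM in Bic_2h, lower in 5 of 5 preparations with overlapping groups. This call was lost when all 45 libraries entered 1 fit. In the paired fit 5 of 7 were called lower, all but mt-Co1 and mt-Nd4, where 14.3% of all genes were called lower. The vascular and mesenchymal marker sum had a 1.33-fold higher mean in Bic_2h (5 of 5 preparations, 2 of 5 markers with a higher mean), the astrocyte sum a 1.11-fold higher mean (4 of 5 preparations) and the neuronal sum a 1.06-fold higher mean (4 of 5 preparations, 7 of 8 markers). Their part was not tested. Within preparations mt-Nd5 fell by 19.6% on average, the largest of these changes, while the long-protocol active effect gave mean increases of 26.4% (mt-Nd5) to 108% (mt-Nd4).

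Among the 7, mt-Nd5 departed most from the rest in the conditions with NMDA. Smaller departures came with TBOA and with 1 h and 2 h Bic. This pattern was picked out after its values were seen and is therefore given without a test. The counts of mt-Nd5 made up 14.3, 13.4, 14.1, 13.7 and 14.2% of the counts on the 7 mRNAs in LP_TTX and 10.2, 10.3, 10.2, 10.2 and 10.5% in LP_TTX_NMDA. In the short protocol the share fell from 14.7 ± 0.805% in SP_TTX to 11.6 ± 0.283% in SP_TTX_NMDA. In both protocols the groups were apart, and the share was lower with NMDA in 5 of 5 preparations. Of the 7 mRNAs, mt-Nd5 had the smallest log2 ratio in 5 of 5 preparations in the long protocol and in 4 of 5 in the short protocol. In LP_TBOA its share was 12.5 ± 0.289%, against 13.5 ± 0.600% in Bic_2h, with overlapping groups and a lower share with TBOA in 5 of 5 preparations. The mean change was -0.99 percentage points with TBOA. Against the control (14.6 ± 1.56%) it was -0.83 after 1 h Bic and -1.06 after 2 h Bic, with a higher share in 1 of 5 preparations each. In each of these 3 comparisons mt-Nd5 had the smallest log2 ratio in 3 of 5 preparations. The control library of preparation 3 had the lowest share among the conditions without NMDA or TBOA, at 11.8%. The share of windows with nuclear copies, 1.66% in mt-Nd5, was close to the 0 of mt-Nd1, mt-Nd6 and mt-Cytb.

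The proportion of the minus-strand mRNA mt-Nd6 to the plus-strand mRNAs moved little between conditions. It made up 0.450 ± 0.0381% of the counts on the 7 in LP_TTX and 0.461 ± 0.0620% in LP_TTX_NMDA. The log2 ratio of mt-Nd6 to the sum of the other 6 changed by 0.03 ± 0.18 (SD, n = 5) with the long-protocol active effect and by -0.15 ± 0.29 with the short-protocol active effect. In all 10 comparisons the mean change of this ratio lay between -0.18 (short-protocol total effect) and 0.12 (1 h Bic). Only for the short-protocol total effect did all 5 preparations move the same way. With 259 to 2783 reads of mt-Nd6 per library, a change in the ratio smaller than the spread between preparations could not be detected.

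**Figure D4:**
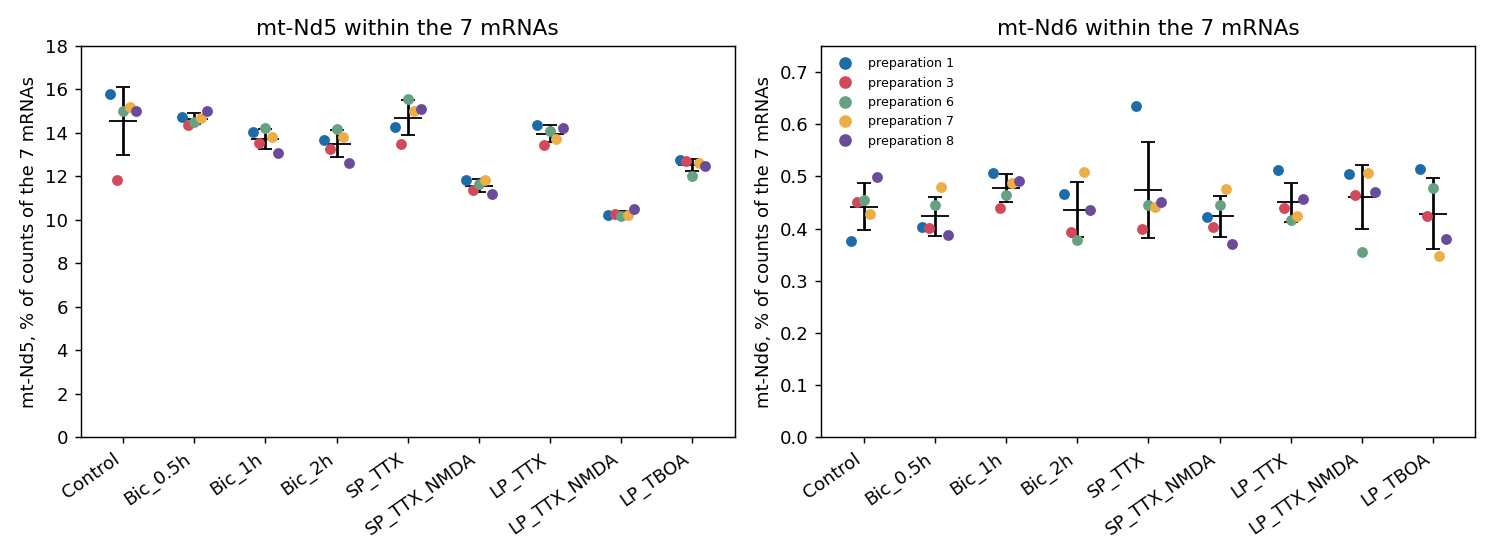
Share of mt-Nd5 (left) and mt-Nd6 (right) in the counts on the 7 mitochondrial mRNAs (y axes, %, from 0) by condition (x axes), with 1 point per library, colored by culture preparation, and bars for mean ± SD (n = 5). The mt-Nd5 share lies between 10.2 and 10.5% in LP_TTX_NMDA and between 13.4 and 14.3% in LP_TTX, while the mt-Nd6 shares of these conditions overlap.

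Over the 45 libraries, the log2 CPM values of the 7 mRNAs rose and fell together, with Pearson's r of 0.78 (mt-Nd1 and mt-Nd5) to 0.99 (mt-Nd4 and mt-Cytb). Each of the other mRNAs had an r of at most 0.86 with mt-Nd5. The mean log2 CPM of the 7 was also compared with 9497 genes outside the mitochondrial genome that had a mean of at least 10 CPM. Erbin, which encodes a scaffold protein that binds the receptor ErbB2, had the highest r (0.90), followed by Ntn4, which encodes the secreted guidance protein netrin-4 (0.86), Msi2, which encodes an RNA-binding protein (0.86), Mindy2, which encodes a deubiquitinase (0.85), and Hibadh, which encodes a mitochondrial enzyme of valine breakdown (0.84). The level of Erbin was 48.2 ± 4.94 CPM in LP_TTX and 68.3 ± 5.84 CPM in LP_TTX_NMDA. These correlations are descriptions over libraries that share preparations and conditions.

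The 2 mitochondrial rRNAs, mt-Rnr1 and mt-Rnr2, are cut from the same precursors and were counted in the poly-A libraries too. Their CPM in LP_TTX was 561 ± 65.5 and 1409 ± 163, and in LP_TTX_NMDA 1057 ± 112 and 2510 ± 238. The log2FC of the long-protocol active effect was 0.90 ± 0.08 for mt-Rnr1 (adjusted p = 8.7e-10) and 0.82 ± 0.08 for mt-Rnr2 (adjusted p = 3.6e-09, edgeR), within the range of the 7 mRNAs. Both were called lower after 2 h Bic (log2FC -0.36 each, adjusted p = 0.0256 and 0.0218), and both were called higher in the passive, total and spillover effects of the long protocol. All mitochondrial genes together took 0.845 ± 0.0939% of the counts in LP_TTX and 1.65 ± 0.170% in LP_TTX_NMDA. Of the 22 mitochondrial tRNA genes, 9 had no read and none had more than 147 reads in a library.

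The annotated nuclear genes that share windows with mitochondrial transcripts had few reads themselves. The search found 12 of them, of which 8 were on the list of nuclear copies used here. The highest counts among these 8 were those of Gm28438 (4 to 57 reads per library), followed by Gm13340 (2 to 34), Gm29216 (0 to 22) and Gm13341 (0 to 10), whereas Gm28437, Gm28439, Gm28661 and Gm10925 did not exceed 2 reads in any library. The 4 that were not on the list, Gm10222, Gm13339, Gm4076 and Gm11407, had at most 6 reads and were not followed further. The list also held Gm11478 (40 to 246 reads), which shared no window with a mitochondrial transcript. In the long-protocol active effect, edgeR called none of the 9 listed genes in the table. The unadjusted p-value was below 0.05 for 3, DESeq2 called 1, and the paired fit called 3 higher. Gm28438, the copy of mt-Nd3, was called higher in the long-protocol passive effect (log2FC 1.01, adjusted p = 0.0207, edgeR) and total effect (log2FC 1.19, adjusted p = 3.4e-03), and Gm11478 in the total effect (log2FC 0.44, adjusted p = 0.0238).

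Of 10 nuclear genes that serve mitochondrial transcription, 3 were called higher and 0 lower in the long-protocol active effect. Of all genes tested, 11.6% were called higher and 11.8% lower, and of the 13592 expressed genes 2719 were called higher. The median log2FC of the 10 was 0.17, against 0.11 over all genes tested and -0.01 over expressed genes. The 3 called higher were Mterf1b (log2FC 1.51, adjusted p = 8.8e-04), Mterf2 (0.56, adjusted p = 8.5e-04) and Mterf3 (0.30, adjusted p = 0.0317, all edgeR), members of the family of mitochondrial transcription termination factors. Mterf1b was barely expressed (0.141 ± 0.0306 CPM in LP_TTX and 0.408 ± 0.0978 CPM in LP_TTX_NMDA) and is uncertain, since it shares sequence with its paralog Mterf1a and reads with several matches were not counted. The polymerase gene Polrmt (log2FC 0.12, adjusted p = 0.37) and the packaging and initiation factor gene Tfam (log2FC -0.20, adjusted p = 0.0897) were not called by edgeR without the block. The paired fit called 5 of the 10 higher and 2 lower, beside 5646 and 4794 of 17467 genes. In that fit Polrmt was higher (log2FC 0.14, adjusted p = 0.0397, edgeR) and Tfam lower (log2FC -0.17, adjusted p = 0.00925, edgeR).

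After 2 h Bic, 6 of the 10 transcription genes were called lower, beside 4.78% of all genes tested, and 0 higher (median log2FC -0.47 against -0.01 over all genes tested). The largest changes were those of Mterf1b (log2FC -2.16, adjusted p = 1.1e-03), Mterf1a (-1.57, adjusted p = 5.8e-05) and Tefm, which encodes the mitochondrial transcription elongation factor (-0.92, adjusted p = 1.9e-05, all edgeR). The 2 Mterf1 paralogs had low levels and are uncertain, because they share sequence. From the control to Bic_2h, Mterf1b went from 0.566 ± 0.267 to 0.136 ± 0.125 CPM, with a higher value in 1 of 5 preparations. Mterf1a went from 1.10 ± 0.123 to 0.387 ± 0.103 CPM. Tefm fell from 5.49 ± 0.786 CPM in the control to 2.93 ± 0.521 CPM in Bic_2h. Tfam fell by 0.52 on the log2 scale (adjusted p = 1.8e-05, edgeR), and Polrmt was not called (log2FC -0.09).

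Of 20 tested genes for processing, tailing, stability and decay of mitochondrial RNA, 2 were called higher and 5 lower in the long-protocol active effect, beside 11.6% and 11.8% of all genes tested. The median log2FC was -0.08, against 0.11 over all genes tested and -0.01 over expressed genes. The paired fit called 5 higher and 7 lower, beside 5646 and 4794 of 17467 genes. Pde12, which encodes a mitochondrial enzyme that removes poly-A tails, fell from 31.02 ± 2.01 to 20.3 ± 2.04 CPM (log2FC -0.62, adjusted p = 9.0e-07, edgeR) and was lower in 5 of 5 preparations. Trmt10c, a subunit of mitochondrial RNase P, had a log2FC of -0.41 (adjusted p = 1.0e-03, edgeR). Slirp rose (0.46, adjusted p = 2.3e-04), whereas Lrpprc, whose protein forms with SLIRP a complex that binds and stabilizes mitochondrial mRNAs, fell (-0.30, adjusted p = 6.7e-04, both edgeR). After 2 h Bic, 4 of the 20 were called lower and 0 higher, where 4.78% of all genes tested were called lower. The largest changes were in Fastkd3 (-0.49, adjusted p = 1.4e-03), Trmt10c (-0.42, adjusted p = 3.7e-03) and the mitochondrial poly-A polymerase gene Mtpap (-0.30, adjusted p = 0.0395, all edgeR). The paired fit called 6 lower and 1 higher, beside 2301 and 2233 of 16043 genes. The higher gene was Pde12 (log2FC 0.26, adjusted p = 0.0126, edgeR).

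Of 6 genes for maintenance of mitochondrial DNA, 3 were called higher and 1 lower in the long-protocol active effect. Of all genes tested, 11.6% were called higher and 11.8% lower, and of the 13592 expressed genes 2719 were called higher. The median log2FC of the 6 was 0.30, against 0.11 over all genes tested and -0.01 over expressed genes. Higher were Ssbp1, which encodes the single-strand DNA-binding protein (0.45, adjusted p = 9.0e-04), Polg2, the accessory subunit of the DNA polymerase (0.44, adjusted p = 0.0363), and Mgme1, an exonuclease (0.38, adjusted p = 0.0415). Polg, the catalytic subunit, was lower (-0.28, adjusted p = 2.3e-03, all edgeR). After 2 h Bic edgeR called none of the 6, with 2 at an unadjusted p-value below 0.05 and 1 called by DESeq2. The paired fit called 1 higher and 1 lower, beside 2233 and 2301 of 16043 genes.

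Among the listed nuclear-encoded subunits that are assembled with the products of the 7 mRNAs, those of complex IV were called most often. The complexes were not tested against each other. In the long-protocol active effect, 11.6% of all genes tested and 2719 of the 13592 expressed genes were called higher. All 9 listed subunits of complex IV were called higher there (log2FC 0.25 to 0.51, median 0.42). The largest changes were in Cox7c (0.51, adjusted p = 1.9e-06), Cox6c (0.49, adjusted p = 1.8e-05) and Cox8a (0.46, adjusted p = 8.6e-04, all edgeR). Of the complex III genes, 4 of 7 were called higher, led by Uqcrq (0.46, adjusted p = 8.2e-05), Uqcrh (0.37, adjusted p = 2.3e-03) and Uqcrb (0.28, adjusted p = 5.0e-03). Of the complex I genes, 5 of 10 were called higher, led by Ndufs7 (0.42, adjusted p = 8.7e-04), Ndufs8 (0.34, adjusted p = 2.1e-03) and Ndufb8 (0.31, adjusted p = 2.9e-03), and none of the 26 was called lower. The medians were 0.25 for complex III and 0.17 for complex I, against 0.11 over all genes tested and -0.01 over expressed genes. Cox7c rose from 99.98 ± 6.03 to 143 ± 11.8 CPM. In the short-protocol active effect and after 2 h Bic, edgeR called none of the 26. The unadjusted p-value was below 0.05 for 14 and 2 of them, DESeq2 called 0 and 2, and the paired fit called 7 and 1 higher. Of all genes, the paired fit called 5.6% higher in the first comparison and 2233 of 16043 in the second.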

How the data were processed

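The authors sequenced poly-A RNA (NEBNext Ultra II directional kit, NextSeq 500, single-end, 75 cycles), aligned reads with STAR (2.5.4b) to GRCm38 with Ensembl release 94, counted them per gene with featureCounts (1.6.5, stranded, without multi-mapping or multi-overlapping reads) and deposited raw counts without normalization. Demultiplexing used bcl2fastq (2.20.0.422), per the submitters' processing notes. Gene symbols were matched by identifier (54409 of 54532 rows). For each comparison, the 10 libraries of its 2 conditions (20 for the difference between protocols) were fitted in R 4.3.3 with edgeR 4.0.16 (TMM, quasi-likelihood, two-sided, Benjamini-Hochberg adjustment over every gene that had 1 or more reads in those libraries), whereas the authors used DESeq2. Scripts were tested on simulated counts. Alternatives were RLE size factors, TMM without mitochondrial genes, filterByExpr, 1 fit of all 45 libraries, DESeq2 1.42.0, the paired fit and leaving out each preparation. CPM values used TMM factors over all 45 libraries. The labels give the replicate number as the culture preparation, so it pairs the libraries. Same-numbered libraries deviated together from their condition means (mean correlation across 13592 expressed genes 0.353 to 0.547 by comparison, lowest single pair -0.193 in the spillover effect).

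Named genes were the 7 mRNAs, the 5 genes outside the mitochondrial genome most correlated with them, up to 3 called genes with the largest change from each list of nuclear genes in the long-protocol active effect and after 2 h Bic, the rRNAs and the nuclear copies. Polrmt, Tfam, Lrpprc and Polg were added after their values were seen. The members and lists were chosen with earlier results of these data known. Shared windows were found by exact match of every 75-base window to all other GENCODE M21 transcripts. The genome itself was not searched. Intervals were not computed for shares. The listed genes Prorp and Gm10924 were not found by symbol.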

Additional observations from a re-analysis of the deposited data

Results flagged for a closer look

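In 81 groups of 5 libraries (7 mRNA levels, their joint share and the mt-Nd6 ratio, in 9 conditions each), the highest or lowest library was compared with the rest by Dixon's criterion for 5 values, which chance alone passes in about 1 of 20 groups. It was passed 3 times, each time by mt-Nd6, the mRNA with the fewest reads. In LP_TTX, preparation 8 had a level of 25.9 CPM, below the others at 30.9 to 32.7 CPM. In SP_TTX, preparation 1 had a log2 ratio of mt-Nd6 to the other 6 mRNAs of -7.29, above the others at -7.96 to -7.79. In LP_TTX_NMDA, preparation 6 had a log2 ratio of -8.13, below the others at -7.74 to -7.62. The active effect on mt-Nd1 differed between the protocols by a test of the difference itself (long minus short, 0.50 on the log2 scale, adjusted p = 0.0421, edgeR), and this call was lost without preparation 1, 3 or 6 and with 2 of the other settings.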

How the results depend on the processing

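The long-protocol active and total effects called 7 of 7 mRNAs without each preparation in turn, and the total effect under all 11 alternatives. The active effect called 6 with all 45 libraries in 1 fit. With the replicate block (the paired fit), the number of mRNAs called was 2 after 1 h Bic, 5 after 2 h Bic, 6 for the short-protocol active effect, 7 for the long-protocol passive effect, 1 for the spillover effect and 6 for the difference of the active effect between protocols. It moved no other count of mRNAs by more than 1.5 times. Fitting all 45 libraries together left 0 mRNAs after 2 h Bic and 0 for the long-protocol passive effect. DESeq2 called 1 and filterByExpr without the block called 0 for the short-protocol active effect. RLE size factors and filterByExpr each called 0 for the difference of the active effect. Without 1 preparation, the counts ranged from 0 to 2 after 1 h Bic (2 without preparation 3), 1 to 3 after 2 h (3 without preparation 3 or 6), 3 to 6 for the short-protocol active effect (6 without preparation 8), 1 to 2 for the long-protocol passive effect, 0 to 4 for the spillover effect (4 without preparation 8) and 0 to 2 for the difference of the active effect. The causes were not tested. The joint share of the 7 mRNAs rose by 0.95 (log2) in the long-protocol active effect and by 0.78 when divided by the TMM effective library size, and it stayed between 0.89 and 0.98 without each preparation.

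Of 910 alternative values for single mRNAs, 822 kept their direction and side of the threshold, 52 passed it newly, 13 lost it and 23 changed sign. The values that changed sign were not called, and their main log2 values were at most 0.14 in size. Without 1 preparation, the log2FC after 0.5 h Bic ranged from -0.161 to 0.0313 for mt-Nd1, -0.0290 to 0.0872 for mt-Nd2, -0.0628 to 0.0457 for mt-Co1, -0.0474 to 0.0484 for mt-Nd5 and -0.130 to 0.000962 for mt-Nd6. It was 0.00124 (DESeq2) and 0.00121 (RLE) for mt-Co1, and 0.00598 (DESeq2), 0.00595 (RLE), 0.00450 (filterByExpr) and 0.00244 (replicate block) for mt-Nd5. The same ranges were -0.00647 to 0.143 for mt-Co1, -0.0429 to 0.215 for mt-Nd4 and -0.0353 to 0.141 for mt-Cytb in the short-protocol passive effect, and -0.0217 to 0.0865 for mt-Nd5 in the short-protocol active effect. For the difference of the passive effect they were -0.0118 to 0.0970 for mt-Nd1, -0.00414 to 0.237 for mt-Nd4 and -0.0719 to 0.135 for mt-Nd5.

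Numbers of genes called over the whole table moved more. With the replicate block they rose from 357 to 636 after 1 h Bic, 2789 to 4534 after 2 h, 1379 to 2551 and 1351 to 4199 for the short-protocol active and total effects, 1485 to 4954 for the long-protocol passive effect, 191 to 423 for the spillover effect, and 900 to 4173 and 88 to 321 for the differences of the active and passive effects. DESeq2 called 2320 for the long-protocol passive effect, 315 for the spillover effect, 1660 and 183 for the 2 differences. For the short-protocol passive effect (85), filterByExpr called 35 and the fit of all libraries 54, and for the spillover effect 104 and 106. Without 1 preparation the ranges reached 52 to 163 for the short-protocol passive effect, 918 for its active effect, 801 to 2068 for its total effect, 909 for the long-protocol passive effect, 123 to 493 for the spillover effect, and 489 and 39 for the differences of the active and passive effects.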
